A study of Mus musculus with 14 samples.

Results

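The genes described here encode 10 regulators of the BCL2 family: Bcl2l1, Mcl1, Bcl2a1b, Bcl2a1d, Bax, Bak1, Bid, Bcl2l11, Bbc3 and Pmaip1. They were chosen by their symbols among the 17656 genes listed for each liver library, with earlier results of these data known. All 10 were listed in each of the 14 libraries, 1 per mouse. WT mice and Ythdf1 knockout (KO, Ythdf1-/-) mice, aged 8 weeks, received either saline or concanavalin A (ConA), a plant lectin that activates T cells and causes an acute hepatitis, at 8 mg/kg into the tail vein, and the liver was taken 8 h later. Saline was given to 3 WT and 3 KO mice, and ConA to 4 WT and 4 KO mice. All were on the C57BL/6 background, and the knockout is carried throughout the body, so a genotype difference cannot be assigned to a cell type. YTHDF1 is a protein that binds m6A-modified mRNA, and the comparisons ask how liver mRNA levels differ with ConA and with loss of YTHDF1.

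Proteins of the BCL2 family decide whether the outer membrane of the mitochondrion stays closed. Pro-survival members such as BCL-XL, MCL1 and A1 hold the effectors BAX and BAK in check, and BH3-only members such as BID, BIM, PUMA and NOXA bind the pro-survival proteins or activate the effectors. Once BAX and BAK open the membrane, cytochrome c leaves and the caspases are activated; in hepatocytes BID links death receptors to this step. Much of this control acts on proteins, through cleavage, binding and turnover, and is not measured by mRNA.

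The 2 members of the A1 group are near copies of each other, and their sequences are shown because they limit how far reads of 50 bases can be assigned to one of them. Bcl2a1b (chr9:89199273-89207838), Bcl2a1d (chr9:88723288-88731850) and Bcl2a1a (chr9:88956920-88962416), a further copy outside the members, lie on the same chromosome of GRCm38.p6. Their coding sequences, each 519 bases long in GENCODE vM21, differ at 6 positions between Bcl2a1b and Bcl2a1d (98.8% identity), at 11 between Bcl2a1b and Bcl2a1a (97.9%) and at 7 between Bcl2a1d and Bcl2a1a (98.7%). The first 90 coding bases are given 5′ to 3′, with capitals at the 6 positions where the 3 copies are not all alike. They lie at chr9:89199360-89199449 on the plus strand for Bcl2a1b, chr9:88731630-88731719 on the minus strand for Bcl2a1d and chr9:88957051-88957140 on the plus strand for Bcl2a1a.
Bcl2a1b: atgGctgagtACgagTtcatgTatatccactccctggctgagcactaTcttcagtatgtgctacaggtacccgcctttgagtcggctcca
Bcl2a1d: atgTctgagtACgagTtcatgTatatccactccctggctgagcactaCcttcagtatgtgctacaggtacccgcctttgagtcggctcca
Bcl2a1a: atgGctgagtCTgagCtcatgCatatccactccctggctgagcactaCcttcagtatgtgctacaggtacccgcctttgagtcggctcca
Over the whole coding sequence, the longest run of identical bases of Bcl2a1b and Bcl2a1d is 217. Of the 50-base stretches of the transcript, 20.8% were found in no other gene for Bcl2a1b and 20.5% for Bcl2a1d, so the division of reads between the copies is uncertain. Stretches of their own made up 86.2% for Bax, which shares sequence with the overlapping gene model Gm45808, and 81.8% for Bak1, which shares sequence with Ggnbp1. The share was 99.8% for Bcl2l11 and 100% for each of the other 5 members.

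Each deposited value is in TPM, transcripts of the gene per 1000000 transcripts of the library, a unit that corrects for gene length. The number of reads is not given with TPM, so counting error could not be stated, and the spread between mice was the measure of error. Tests were made with limma after log2(TPM + 1) transformation, which understates the change of genes with low TPM, and the threshold for a call was an adjusted p (Benjamini-Hochberg, over all genes tested) under 0.05. Replicates 2 and 3 of WT saline hardly differed. Across the 100 most variable genes of KO saline livers, their log2 ratio had a median size of 0.120, whereas the 14 other replicate pairs outside KO saline gave 0.268 to 0.899. Replicate 3 of each ConA group stood apart from the other 3 on the second principal component (7.77% of the variance). Among genes above 0 in every library, the median ratio to the geometric mean over libraries was 0.79 in WT ConA replicate 3, the lowest of the 14. Its 50 most abundant genes held 53.7% of its TPM, the highest share of the 14. Whole-gene Ythdf1 ranged from 12.03 to 13.9 TPM with saline and 18.7 to 25.6 with ConA in WT, and from 18.4 to 20.8 with saline and 15.5 to 26.2 with ConA in KO. All KO saline libraries thus lay above all WT saline libraries. The study's drawing of the allele shows 1 inner exon removed and the others kept, no exon was measured alone, and the whole-gene value therefore does not check the genotype labels. All 10 hepatocyte markers were present, with summed levels from 88750 to 186156 TPM over the 14 libraries.

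Of the 10 members, ConA raised 5 in WT liver and all 10 in KO liver, and none fell. Among all genes tested, 22% were called higher and 31% lower in WT, and 33.9% were called higher and 30.7% lower in KO. On the scale of log2(TPM + 1), Bcl2l1 showed the largest rise of the 10 in both genotypes, and it was the 1 member called higher in KO than in WT liver after ConA. By the ratio of group means in TPM the order differed. That ratio was 8.52 (WT) and 13.01 (KO) for Pmaip1, which was near 0 with saline, and 3.26 and 6.36 for Bcl2l1. Because fewer cells of a type and less RNA per cell cannot be told apart in whole liver, all levels are those of the tissue.

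**Figure D1:**
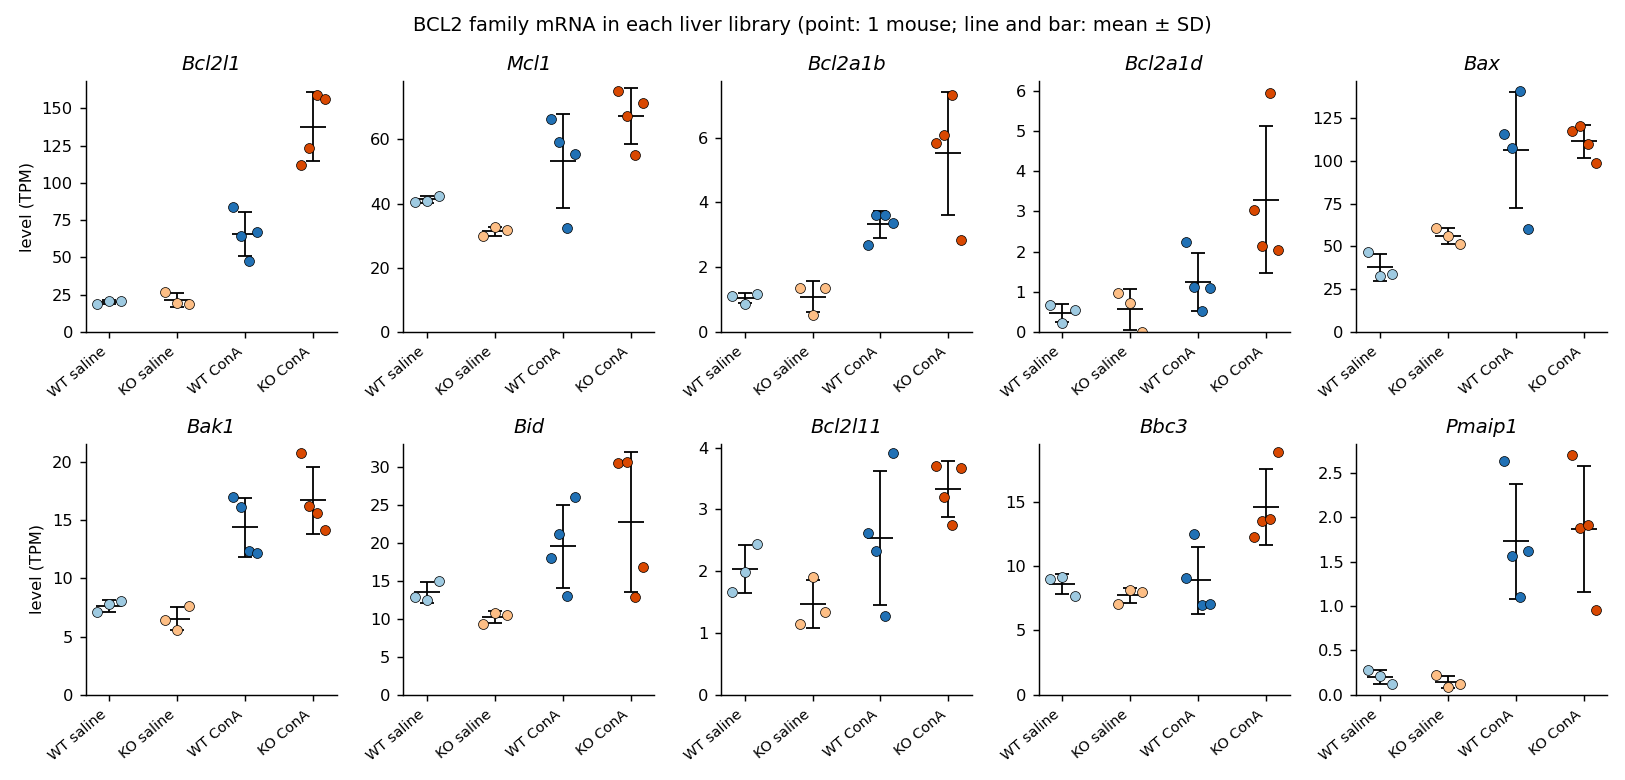
Level of each member in TPM (vertical axis, from 0, a scale of its own in each panel) in the 4 groups. Each point is 1 mouse, the line is the mean and the bar the SD; Bcl2l1 is the member whose 4 KO ConA points, from 112.32 to 158.79 TPM, all lie above the 4 WT ConA points.

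Bcl2l1 encodes BCL-XL, a pro-survival protein of the outer mitochondrial membrane that hepatocytes depend on, and lies at chr2:152758732-152833803. Its level was 18.92, 21.03 and 20.74 TPM in WT saline and 27.07, 19.27 and 18.61 TPM in KO saline. It was 84.14, 64.64, 47.96 and 67.17 TPM in WT ConA and 112.32, 123.5, 158.79 and 156.35 TPM in KO ConA. No ConA library overlapped a saline library, and no KO ConA library overlapped a WT ConA library. The log2 fold change with ConA was 1.63 in WT (SE 0.18, adjusted p = 7.59e-05) and 2.62 in KO (SE 0.17, adjusted p = 3.64e-07), which corresponds to a 3.10-fold and a 6.14-fold level of TPM + 1. By its mean level, Bcl2l1 ranked 3 of 10 in WT saline and 1 of 10 in KO ConA, and the share of all listed genes below it went from 80.7% to 95.8%.

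Mcl1 (chr3:95656944-95663179) encodes MCL1, a short-lived pro-survival protein on which hepatocytes also rely. WT saline livers had 40.65, 40.83 and 42.47 TPM and KO saline livers 29.87, 32.6 and 31.69 TPM. With ConA, WT livers had 66.31, 59.24, 32.25 and 55.31 TPM and KO livers 75.14, 67.32, 55.02 and 71.19 TPM. In TPM without rescaling, WT ConA replicate 3 lay below every WT saline library, while the other 3 lay above them. That library also had the lowest median ratio over all genes, as given above. The rise in KO was called (log2 fold change 1.07, SE 0.13, adjusted p = 3.57e-05), and the WT difference was not (0.31, SE 0.22, adjusted p = 0.272). Without WT ConA replicate 3, the WT value was 0.53 and was called (adjusted p = 0.00209).

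Bcl2a1b and Bcl2a1d encode A1, a pro-survival protein induced by NF-kB in activated leukocytes. For Bcl2a1b, the values were 1.12, 0.87 and 1.17 TPM in WT saline, 1.35, 0.53 and 1.37 in KO saline, 2.7, 3.6, 3.6 and 3.38 in WT ConA, and 5.82, 6.07, 7.31 and 2.85 in KO ConA. Bcl2a1d had 0.66, 0.23 and 0.54 TPM in WT saline, 0.97, 0.73 and a listed value of 0 in KO saline, 2.24, 1.12, 0.52 and 1.09 in WT ConA, and 3.04, 2.13, 5.94 and 2.03 in KO ConA. All ConA libraries exceeded all saline libraries of their genotype except for Bcl2a1d in WT ConA replicate 3. Bcl2a1b rose by 1.07 on the log2 scale in WT (SE 0.14, adjusted p = 2.13e-04) and by 1.62 in KO (SE 0.27, adjusted p = 3.22e-04). Bcl2a1d rose in KO (1.42, SE 0.31, adjusted p = 0.00208), and its WT value of 0.56 was not called (SE 0.24, adjusted p = 0.0752). Without WT ConA replicate 3, that value was 0.73 and was called (adjusted p = 0.0155). Bcl2a1b, Bcl2a1d and Pmaip1 passed the filter of 1 TPM through the ConA libraries, which favours a rise; with no filter the counts of members called higher stayed at 5 in WT and 10 in KO. Since reads cannot be divided securely among the copies, the summed level of Bcl2a1a, Bcl2a1b, Bcl2a1c and Bcl2a1d is also given, with no test: with saline 1.65 to 2.53 TPM (WT) or 1.37 to 2.32 TPM (KO), and with ConA 5.22 to 7.15 TPM (WT) or 5.12 to 16.6 TPM (KO).

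Among markers of leukocytes that are known to express A1, the neutrophil sum was higher after ConA, and the monocyte sum was higher mainly through Cd14. The summed level of 12 neutrophil markers was 9.64 to 11.97 TPM (WT) or 5.56 to 11.1 TPM (KO) after saline, and 337 to 594 TPM (WT) or 437 to 1008 TPM (KO) after ConA. For 8 monocyte markers the ranges were 30.9 to 44.3, 11.9 to 37.1, 167 to 481 and 332 to 424 TPM with saline in WT, saline in KO, ConA in WT and ConA in KO. The monocyte sum was mostly Cd14, with a mean of 2.97 and 1.21 TPM after saline and 218.6 and 302.9 TPM after ConA (WT and KO). Without Cd14, the other 7 summed to 27.6 to 41.3, 10.9 to 35.7, 29.03 to 58.2 and 26.96 to 103.6 TPM, which overlapped between saline and ConA in both genotypes, and Lyz2, the most abundant of them with saline, had means of 31.6, 25.9, 21.7 and 30.02 TPM. S100a8 and S100a9 made up most of the neutrophil sum, and the other 10 summed to 4.35 to 7.27, 3.58 to 5.12, 47.2 to 75.9 and 53.7 to 120.6 TPM; Ly6g was the 1 of 12 whose mean was lower after ConA in each genotype. Of each of these 2 lists, 1 marker was at 0 in all libraries of each saline group, and none was at 0 throughout a ConA group. The 10 Kupffer cell markers summed to 134 to 230, 63.3 to 145, 24.6 to 95.5 and 19.5 to 85.6 TPM in that order, and the 10 hepatocyte markers to 156060 to 177283, 158548 to 186156, 94514 to 120096 and 88750 to 102093 TPM. Of the hepatocyte markers, Fgb and Tat had higher means after ConA in both genotypes, and the others had lower means. Mean Fgb went from 4445 to 18999 TPM in WT and from 3635 to 21955 TPM in KO. The part of these cell types in the values of the members was not tested.

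Bax (chr7:45461695-45466903) and Bak1 (chr17:27019812-27028627) encode the effectors that form the pores. Bax was at 46.55, 32.85 and 33.82 TPM in WT saline and at 60.75, 56.35 and 51.52 TPM in KO saline. After ConA it was at 115.72, 107.73, 141.05 and 60.21 TPM in WT and at 117.3, 120.33, 109.95 and 98.68 TPM in KO. ConA and saline libraries did not overlap within a genotype, while WT ConA replicate 4 lay below the highest KO saline library. The log2 fold change was 1.42 in WT (SE 0.27, adjusted p = 0.00179) and 0.98 in KO (SE 0.12, adjusted p = 3.11e-05). WT ConA replicate 3, which had the lowest levels of Bcl2l1 and Mcl1 in its group, had the highest level of Bax of all 14 libraries.

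Bak1 was at 7.09, 7.77 and 8.02 TPM in WT saline, 6.41, 5.6 and 7.62 in KO saline, 17.0, 16.14, 12.32 and 12.13 in WT ConA, and 20.79, 16.17, 15.6 and 14.17 in KO ConA. Every ConA library exceeded every saline library. The log2 fold change was 0.82 in WT (SE 0.16, adjusted p = 0.00208) and 1.22 in KO (SE 0.17, adjusted p = 7.93e-05). Bak1 remained the less abundant effector, with a mean of 16.7 TPM in KO ConA against 111.6 TPM for Bax.

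Among the 4 BH3-only genes, Pmaip1 alone was called in WT, and all 4 were called in KO. Over all genes tested, 22% were called higher in WT and 33.9% in KO. None of the 4 was called when the response to ConA was compared between the genotypes. Bid (chr6:120893119-120917062), whose product is cleaved by caspase-8, was at 12.92, 12.46 and 14.99 TPM in WT saline, 9.28, 10.8 and 10.44 in KO saline, 18.04, 21.15, 13 and 26 in WT ConA, and 30.47, 30.6, 12.81 and 16.82 in KO ConA. KO ConA replicates 1 and 2 were thus higher than replicates 3 and 4 by more than the whole range of the saline groups. The log2 fold change was 0.996 in KO (SE 0.27, adjusted p = 0.00798) and 0.47 in WT, where it was not called (SE 0.21, adjusted p = 0.0921). Without WT ConA replicate 3, it was 0.64 in WT and was called (adjusted p = 0.00583).

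Bcl2l11 (chr2:128126038-128162547) encodes BIM, a BH3-only protein that removes activated lymphocytes. It was at 1.67, 1.98 and 2.44 TPM in WT saline, 1.15, 1.9 and 1.34 in KO saline, 2.61, 2.32, 1.28 and 3.92 in WT ConA, and 3.71, 3.2, 2.74 and 3.67 in KO ConA. The 2 WT groups overlapped, and the 2 KO groups did not. The rise was called in KO (log2 fold change 0.82, SE 0.17, adjusted p = 0.00130), and the WT difference was 0.18 (SE 0.24, adjusted p = 0.567).

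Bbc3 (chr7:16308398-16318334) encodes PUMA, a p53 target. It was at 8.98, 9.17 and 7.7 TPM in WT saline, 7.07, 8.11 and 7.99 in KO saline, 9.1, 12.49, 6.96 and 7.03 in WT ConA, and 12.29, 13.51, 13.68 and 18.89 in KO ConA. WT ConA replicates 3 and 4 lay below all WT saline libraries, and replicate 2 lay above the lowest KO ConA library. The log2 fold change was 0.82 in KO (SE 0.17, adjusted p = 0.00119) and 0.01 in WT (SE 0.20, 95% confidence interval -0.45 to 0.47, adjusted p = 0.971).

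Pmaip1, on chromosome 18, encodes NOXA, which binds MCL1 and A1. It was at 0.28, 0.21 and 0.12 TPM in WT saline and 0.22, 0.09 and 0.12 TPM in KO saline, the lowest mean of the 10 members in both groups. With ConA it was at 2.64, 1.57, 1.1 and 1.62 TPM in WT and 2.7, 1.88, 1.92 and 0.96 TPM in KO. The log2 fold change was 1.16 in WT (SE 0.18, adjusted p = 6.73e-04) and 1.29 in KO (SE 0.20, adjusted p = 2.01e-04), and the ratio of the group means in TPM was 8.52 in WT and 13.01 in KO.

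**Figure D2:**
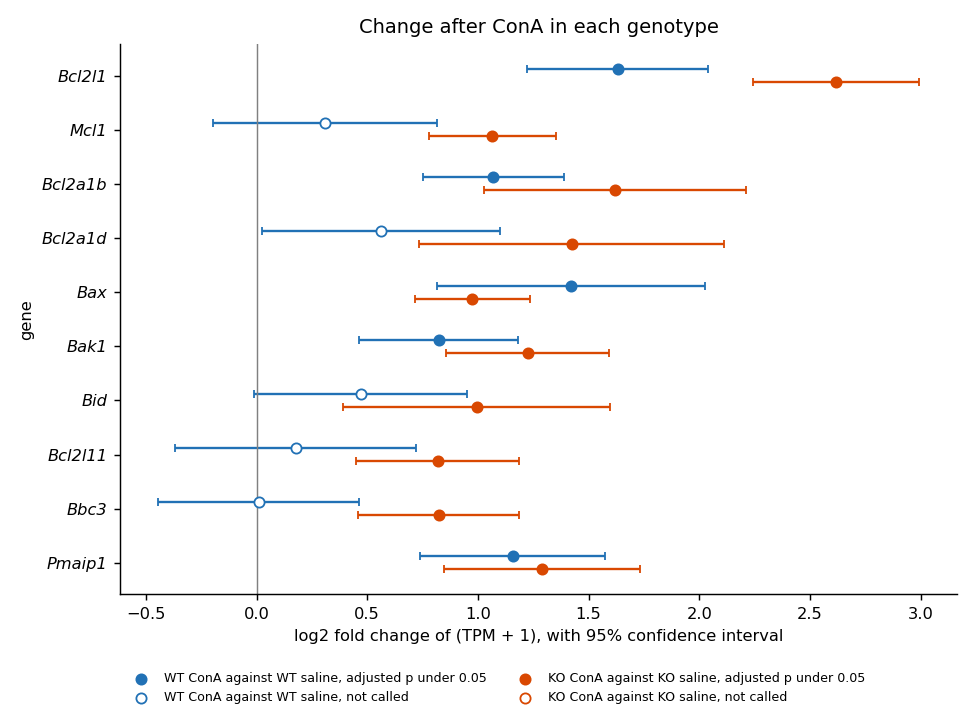
Log2 fold change of TPM + 1 after ConA against saline (horizontal axis) for each member, in WT (blue, 4 against 3 mice) and KO (orange, 4 against 3 mice), with 95% confidence intervals. Filled points have an adjusted p under 0.05: 5 of 10 in WT and 10 of 10 in KO, with Bcl2l1 farthest to the right in both.

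The median log2 fold change of the 10 members was 0.69 in WT and 1.14 in KO, beside -0.07 and 0.07 over all genes tested. For the other BCL2 family genes tested (9 in WT and 10 in KO) it was -0.23 and -0.29. The members were chosen with earlier results of these data known, so these medians and the counts below do not test the family. The ConA libraries exceeded all saline libraries for 5 members in WT, where 23.3% of all tested genes did so, and for 10 in KO, where 32.8% did so. The WT count rests on 1 library: without WT ConA replicate 3, 8 members were called. In that fit 3439 of 10692 genes were called higher, beside 2368 of 10768 in the main fit. Rescaling the libraries to a common median gave 7 members, with 2955 of 10740 genes called higher. With the near-identical WT saline replicates averaged as 1 mouse, the count stayed at 5.

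The summed levels by role cover the members only and are given without a test. Other family genes were left out, so the sums do not give the balance of the whole family. In WT, mean TPM went from 19.79 (saline) to 16.995 (ConA) for Bad, 7.67 to 1.635 for Bik and 3.79 to 0.26 for Bmf. It went from 447.98 to 550.58 for Bnip3 and from 42.41 to 70.67 for Bnip3l. The pro-survival gene Bcl2l2 had a higher mean in KO saline (26.62 TPM) than in WT saline (13.54 TPM). The pro-survival member sums had the opposite order. The 4 pro-survival members summed to 61.4 to 64.9 TPM (WT) or 51.7 to 59.3 TPM (KO) after saline, and to 84.3 to 155.4 TPM (WT) or 196 to 232 TPM (KO) after ConA. The effectors summed to 40.6 to 53.6, 59.1 to 67.2, 72.3 to 153 and 113 to 138 TPM in the same order, and the BH3-only members to 23.8 to 25.3, 17.7 to 20.9, 22.3 to 38.6 and 31.2 to 49.2 TPM. The pro-survival sums of the 2 ConA groups did not overlap, and those of the effectors and BH3-only members did. The separation of the pro-survival sums depended on Bcl2l1. Without it, the other 3 pro-survival members summed to 36.4 to 71.3 TPM (WT) or 68.3 to 84.0 TPM (KO) after ConA. These overlap through WT ConA replicate 1 and KO ConA replicate 3 only, and their means were 57.8 TPM (WT) and 76.0 TPM (KO). Within the pro-survival members, Mcl1 was the more abundant in all 6 saline livers and Bcl2l1 in all 8 ConA livers. The ratio of Bcl2l1 to Mcl1 was 0.465 to 0.515 in WT and 0.587 to 0.906 in KO with saline, and 1.09 to 1.49 in WT and 1.495 to 2.89 in KO with ConA. The ratio of Bax to Bcl2l1 was 1.56 to 2.46, 2.24 to 2.92, 0.896 to 2.94 and 0.631 to 1.04. It was above 1 in all 6 saline livers, in 3 of 4 WT ConA livers and in 1 of 4 KO ConA livers.

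**Figure D3:**
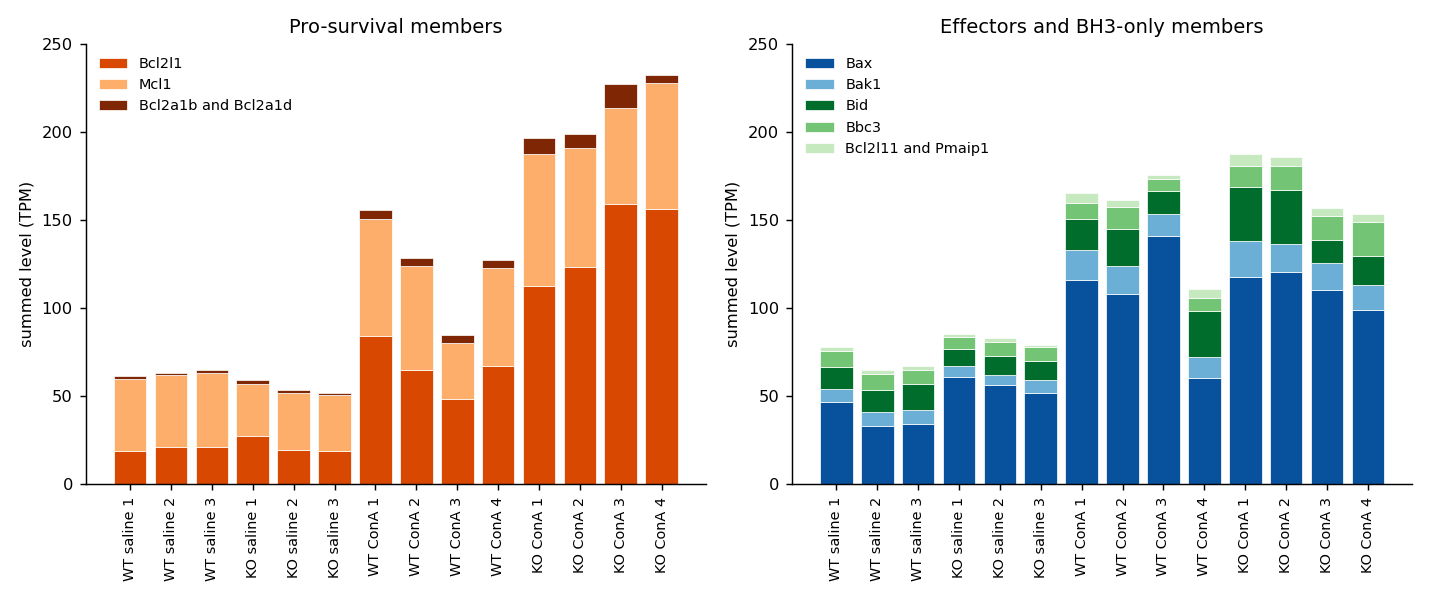
Summed level in TPM (vertical axis, from 0 to 250 in both panels) in each of the 14 libraries, with the pro-survival members on the left and the effectors and BH3-only members on the right. The pro-survival bars reach 155.4 TPM at most in WT ConA and 196 TPM at least in KO ConA, and the Bcl2l1 segment makes up 57.2 to 69.9% of them in KO ConA.

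Without ConA, 3 of the 8 members tested differed between the genotypes, beside 19.2% of all genes tested (6.3% higher and 12.9% lower in KO). Bcl2a1d and Pmaip1 were below the filter in saline livers and were not tested. Bax was higher in KO saline (log2 difference 0.58, SE 0.14, adjusted p = 0.0354), while Mcl1 (-0.39, SE 0.08, adjusted p = 0.0225) and Bid (-0.37, SE 0.10, adjusted p = 0.0436) were lower. For these 3 genes no KO saline library overlapped a WT saline library, as was the case for 42.3% of all genes tested. The differences of the 5 members not called ranged from -0.30 for Bcl2l11 to 0.08 for Bcl2l1, and that of Bcl2a1b was 0.00 with a sign that turned on rescaling. All 3 calls depended on counting the near-identical WT saline replicates 2 and 3 as separate mice. With these averaged, limma called 0 members (3 at an unadjusted p under 0.05) and 0.459% of all genes, and the adjusted p was 0.136 for Bax, 0.104 for Mcl1 and 0.122 for Bid. Leaving out WT saline replicate 2 or 3, or KO saline replicate 1 or 2, also ended all 3 calls, and leaving out WT saline replicate 1 ended that of Bid (adjusted p = 0.0554). The summed markers of 3 other cell types also separated the saline genotypes. They were at 32.5 to 126 TPM (WT) or 152.6 to 246 TPM (KO) for 6 stellate cell markers, 23.4 to 32.1 or 37.9 to 63.9 TPM for 8 sinusoidal endothelial cell markers, and 1.60 to 2.38 or 2.71 to 3.40 TPM for 9 T cell markers. Each T cell marker had a mean under 1 TPM in both saline groups. Cd3g went from 0.30 TPM in WT to 0.91 TPM in KO and Lck from 0.25 to 0.56 TPM, while Cd8a, Cd8b1 and Icos had lower means in KO. The part of these cell types in the values of Bax, Mcl1 and Bid was not tested.

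After ConA, 1 of 10 members was called between the genotypes. Bcl2l1 was higher in KO than in WT livers (log2 difference 1.06, SE 0.18, 95% confidence interval 0.66 to 1.47, adjusted p = 0.0369), a 2.09-fold level of TPM + 1. Among all genes tested, 0.428% were called in either direction and 0.342% were called higher in KO. All 4 KO ConA livers exceeded all 4 WT ConA livers for Bcl2l1 and for no other member, and 6.37% of all genes tested showed this. The summed T cell markers did not overlap either (WT 3.97 to 6.08 TPM, KO 6.62 to 9.70 TPM), whereas those of the other 8 cell types did, and their part in the difference of Bcl2l1 was not tested. Over the alternatives the difference stayed between 0.85 and 1.19, and the adjusted p ranged from 0.00570 to 0.111. It was above 0.05 in 11 of 16 alternatives: 7 of the 8 fits that left out 1 library (all but that without WT ConA replicate 1), no filter (0.0931), rescaling (0.0776), the replicate number as a block (0.0530) and replicate 3 of both ConA groups left out (0.0892).

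The fitted difference was positive for all 10 members, beside 57.5% of all genes tested, and the median was 0.35, beside 0.05 over all genes. The 9 members not called had differences of 0.90 for Bcl2a1d (95% confidence interval 0.25 to 1.55, adjusted p = 0.164), 0.67 for Bbc3 (0.22 to 1.13, adjusted p = 0.146), 0.54 for Bcl2a1b (0.03 to 1.05, adjusted p = 0.268) and between 0.06 and 0.37 for the other 6. Bax differed by 0.13, with a confidence interval from -0.36 to 0.62. The sign of Bax, Bid and Pmaip1 turned in at least 1 fit that left out a library. Bbc3 was called in 1 alternative, the fit of all 14 libraries (adjusted p = 0.0335).

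The interaction of genotype and ConA compares the response to ConA between genotypes, and it uses all 4 groups, so it shares its libraries with the comparisons above. Bcl2l1 was the 1 member called, with a response larger in KO by 0.99 on the log2 scale (SE 0.26, 95% confidence interval 0.43 to 1.55, adjusted p = 0.0459), beside 4.78% of all genes tested. The interaction was 0.81 for Bbc3 (SE 0.26, adjusted p = 0.0809), 0.75 for Mcl1 (SE 0.27, adjusted p = 0.107), 0.86 for Bcl2a1d (SE 0.44, adjusted p = 0.228) and 0.64 for Bcl2l11 (SE 0.30, adjusted p = 0.195). It was positive for 9 of 10 members, beside 62.2% of all genes tested, and negative for Bax alone (-0.45, SE 0.31, adjusted p = 0.376). For the other 4 members it lay between 0.13 for Pmaip1 and 0.55 for Bcl2a1b. The median over all genes was 0.14, and rescaling moved it by -0.11 to 0.03. After rescaling, the interaction of Bcl2l1 was 0.85 and was not called (adjusted p = 0.0991), nor was it called with WT saline replicates 2 and 3 averaged (adjusted p = 0.124), no filter (0.0703), the pseudocount of 0.1 (0.0516), the replicate number as a block (0.0622) or in 11 of the 14 fits that left out 1 library (all but those without WT ConA replicate 1, WT ConA replicate 4 or KO ConA replicate 1). Over the alternatives its value stayed between 0.77 and 1.15. Bbc3 was called in 1 of the 14 fits, that without WT ConA replicate 2 (0.97, adjusted p = 0.0333). With replicate 3 of both ConA groups left out, a setting added after the data were seen, limma called Bcl2l1 (0.77, adjusted p = 0.0427) and Mcl1 (0.63, adjusted p = 0.0121). In that fit 14.1% of all genes tested were called.

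**Figure D4:**
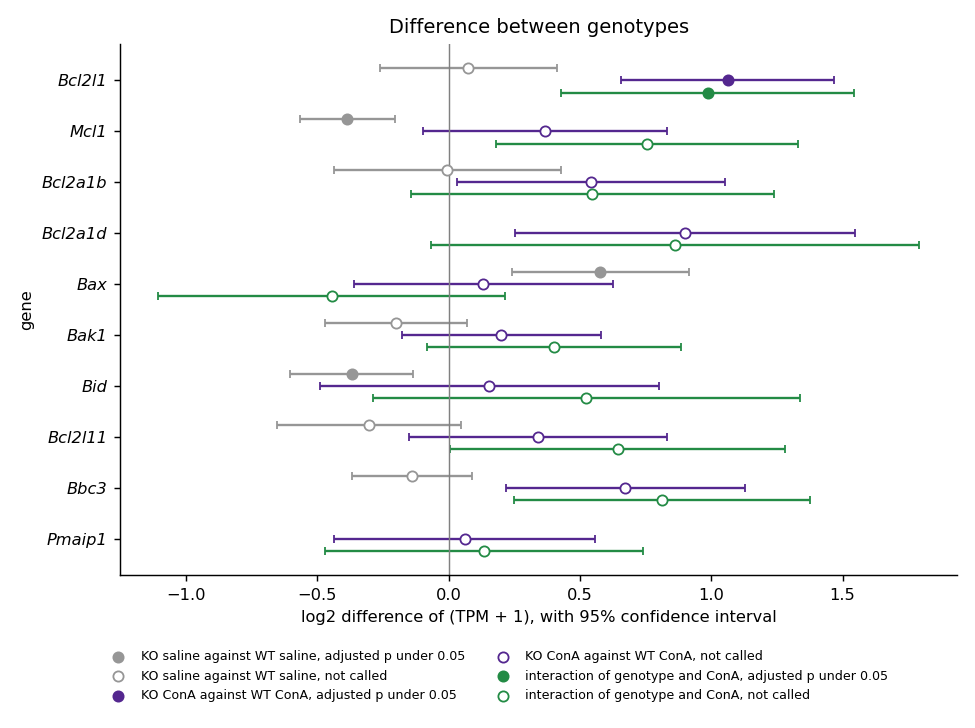
Log2 difference of TPM + 1 (horizontal axis) between KO and WT for each member, in saline livers (grey), in ConA livers (purple) and as the interaction of genotype and ConA (green), with 95% confidence intervals. Filled points have an adjusted p under 0.05, and Bcl2l1 is the member filled in purple and green. Bcl2a1d and Pmaip1 have no grey point because they were not tested in saline livers.

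The bases upstream of Bcl2l1 and Bax are shown because these genes, the 2 most abundant members in KO ConA liver, were called higher after ConA in both genotypes. The sequences are from RefSeq on GRCm38.p6, 250 bases before an annotated start, both on the minus strand, and are written 5′ to 3′ in the direction of the gene. The windows are chr2:152830718-152830967 for Bcl2l1, at 1 of its 3 starts in the table, and chr7:45466899-45467148 for Bax. This Bcl2l1 start was picked because its window had the most motif matches. The windows at its other starts had no match to any motif searched. Capitals mark the motif matches.
Bcl2l1: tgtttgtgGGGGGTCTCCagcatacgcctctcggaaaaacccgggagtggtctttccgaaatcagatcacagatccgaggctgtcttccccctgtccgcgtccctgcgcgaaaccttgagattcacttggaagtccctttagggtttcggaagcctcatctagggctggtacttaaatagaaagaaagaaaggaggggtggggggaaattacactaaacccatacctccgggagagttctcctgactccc
Bax: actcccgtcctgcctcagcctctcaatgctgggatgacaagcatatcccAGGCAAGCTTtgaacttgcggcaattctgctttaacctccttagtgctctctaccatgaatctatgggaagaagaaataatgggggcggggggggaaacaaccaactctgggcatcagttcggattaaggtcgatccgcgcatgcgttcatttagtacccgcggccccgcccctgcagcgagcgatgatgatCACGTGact
The match upstream of Bcl2l1 is to the NF-kB motif, and the 2 matches upstream of Bax are to a p53 half-site and, near the start, to the E-box CACGTG. Matches were searched on both strands in the 250 bases upstream of each start, for members and for all promoters alike, and none of the capitals belongs to more than 1 motif. A window with an NF-kB match was found for 2 of the 9 members searched (Bcl2l1 and Bbc3) and in 3.90% of 32851 promoters. The p53 half-site was found for Bax alone (7.13% of promoters), the E-box for Bax and Bbc3 (6.02%), and the AP-1 motif TGANTCA for Bcl2a1b and Bcl2a1d (6.75%). The STAT motif TTCNNNGAA (7.02%) and the CRE motif TGACGTCA (1.55%) had no match in these windows. Pmaip1 was not searched, and Bcl2l1, Bcl2l11 and Bbc3 had more than 1 start, which gives them more windows.

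Over the 14 libraries, the genes whose log2(TPM + 1) followed each member most closely differed from member to member. For Bcl2l1 they were Nufip1 (Pearson r = 0.99) and Ralgds (0.99), for Mcl1 Dhx15 (0.99) and Lsm14a (0.98), for Bak1 Sf3a1 (0.99) and Surf6 (0.98), and for Bax Aen (0.97) and Ruvbl2 (0.96). Bcl2a1b was followed by Pdk3 and Icosl (both 0.97), Bcl2a1d by Aldh1a3 (0.95) and Mmp13 (0.93), Bid by Gxylt1 and Ro60 (both 0.96), Bcl2l11 by Arl4a and Thoc2l (both 0.95) and Bbc3 by Gcc1 and N4bp3 (both 0.91). Pmaip1 was followed by C5ar1 (0.99), the receptor for complement C5a on neutrophils and macrophages, and Ifitm6 (0.98). The 14 libraries share the contrast of ConA with saline, so high values are common: 8.62% of 11317 genes had an r above 0.9 with Bcl2l1, and 0.053% with Bbc3.

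Of 16 other BCL2 family genes, 15 were listed. In WT, 1 of 9 tested rose and 2 fell with ConA, and in KO, 3 of 10 rose and 4 fell. Beside these counts, 22% of all genes tested were called higher and 31% lower in WT, and 33.9% and 30.7% in KO. The genes that fell included 2 BH3-only genes in both genotypes. Bmf, whose product senses detachment of cells, went from 3.56 to 3.91 TPM in WT saline to 0.11 to 0.41 TPM in WT ConA (log2 fold change -1.93, SE 0.13, adjusted p = 5.34e-06), and from 2.19 to 3.30 TPM to 0.26 to 0.43 TPM in KO (-1.47, SE 0.15, adjusted p = 9.42e-06). Bik, like the genes named in the rest of this paragraph, was picked after its values were seen, and it fell by 1.71 in WT (adjusted p = 3.09e-05) and 1.91 in KO (adjusted p = 7.76e-05). The pro-survival gene Bcl2l2, which encodes BCL-W, fell in KO (-1.38, SE 0.29, adjusted p = 0.00156) and its WT value was -0.18; in saline livers it was higher in KO (0.89, SE 0.22, adjusted p = 0.0342). Bcl2l2 had 11.97 to 15.46 TPM (WT) or 17.74 to 33.29 TPM (KO) after saline, and 8.57 to 13.91 TPM (WT) or 6.34 to 14.60 TPM (KO) after ConA. Bcl2 itself was below the filter, at 0.07 to 0.62 TPM over the 14 libraries. The further A1 copy, Bcl2a1a, was called higher in KO (1.41, SE 0.38, adjusted p = 0.00701; 0.0237 with no filter), but it passed the filter through the KO ConA libraries alone, and its 0 to 0.34 TPM in KO saline overlapped the 0.24 to 3.54 TPM in KO ConA. Bmf likewise passed through the saline libraries, which favours a fall, and was called in both genotypes with no filter (adjusted p = 2.60e-05 and 4.85e-05). Between KO ConA and WT ConA, limma called 0 of 9 (1 at an unadjusted p under 0.05), beside 0.428% of all genes tested.

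Of 18 genes of the apoptosome, the caspases and the inhibitors of apoptosis, 4 rose and 5 fell of 17 tested in WT, and 7 rose and 5 fell of 17 in KO. Over all genes tested, 22% were called higher and 31% lower in WT, and 33.9% and 30.7% in KO. Apaf1, the scaffold that cytochrome c assembles into the apoptosome, rose from 0.12 to 0.38 TPM to 2.91 to 6.12 TPM in WT (log2 fold change 2.21, SE 0.22, adjusted p = 4.04e-05) and from 0.19 to 0.39 TPM to 8.24 to 12.6 TPM in KO (3.09, SE 0.17, adjusted p = 1.41e-07). It was under 1 TPM in all saline libraries and passed the filter through the ConA libraries, which favours a rise; with no filter the adjusted p was 2.69e-04 in WT and 7.18e-06 in KO. Birc2 and Birc3, which encode the ubiquitin ligases cIAP1 and cIAP2 and were picked after their values were seen, rose by 1.83 and 1.66 in WT and by 1.999 and 2.14 in KO. Casp9, the protease that Apaf1 activates, was also picked after its values were seen. It fell by 1.28 in WT (adjusted p = 2.60e-04) and by 0.65 in KO (adjusted p = 0.0122). The list had 0 of 17 genes called by limma between KO ConA and WT ConA (3 at an unadjusted p under 0.05), beside 0.428% of all genes tested. Endog, a mitochondrial nuclease, was the 1 gene called in the interaction (-1.41, SE 0.28, limma adjusted p = 0.0238), beside 4.78% of all genes tested. With WT saline replicates 2 and 3 averaged, the interaction calls over all genes went from 541 to 28, and Endog was not followed in that fit.

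The 6 genes of outer membrane channels and importers, through which BCL2 proteins reach or contact the membrane, gave 0 rises and 3 falls in WT and 1 rise and 2 falls in KO. These counts stand beside 22% of all genes tested called higher and 31% lower in WT, and 33.9% and 30.7% in KO. Vdac1, the main anion channel of the outer membrane, was at 160.89 to 178.45 TPM in WT saline, against 89.46 to 124.72 TPM in WT ConA (log2 fold change -0.71, SE 0.14, adjusted p = 0.00240). In KO it was at 124.38 to 155.77 TPM in saline and 118.15 to 149.63 TPM after ConA. The interaction of Vdac1 was called (0.69, SE 0.19, limma adjusted p = 0.0471), beside 4.78% of all genes tested. It was not followed with WT saline replicates 2 and 3 averaged, a fit in which the interaction calls went from 541 to 28. Limma called 0 of 6 between KO ConA and WT ConA (1 at an unadjusted p under 0.05), beside 0.428% of all genes tested. The median log2 fold change with ConA was -0.23 in WT and -0.29 in KO for the other BCL2 family genes, 0.14 and 0.18 for the apoptosome list, and -0.35 and -0.12 for the channels and importers.

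**Figure D5:**
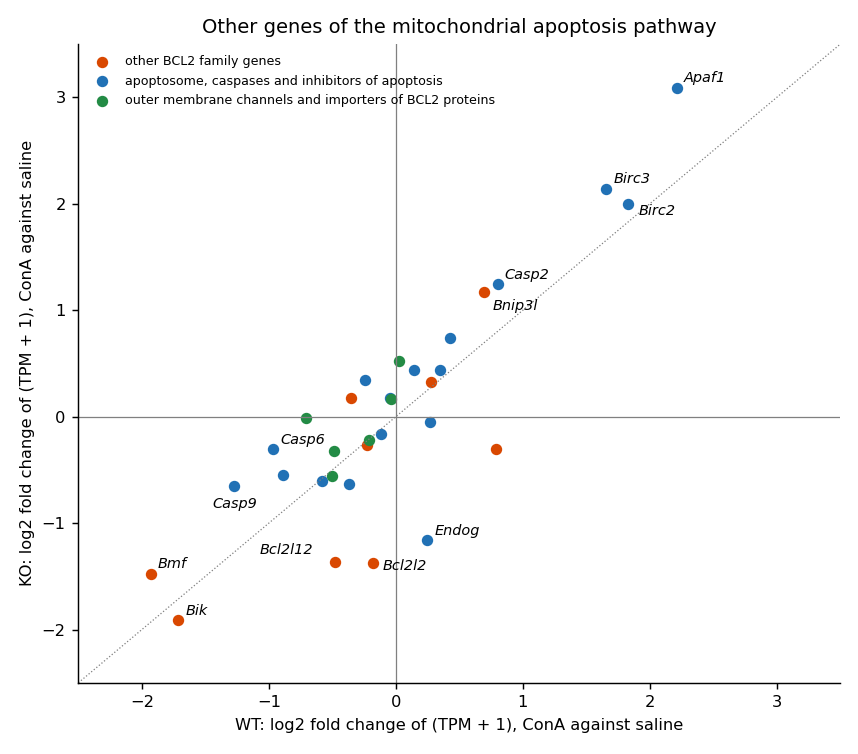
Log2 fold change of TPM + 1 after ConA in WT (horizontal axis) and in KO (vertical axis) for the 32 genes of the 3 lists tested in both genotypes, coloured by list, with the line of equal change dotted. Apaf1, Birc2 and Birc3 lie at the upper right and Bmf and Bik at the lower left; names are given where either value exceeds 0.9 in size.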

How the data were processed

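Liver RNA of 14 mice was sequenced by the authors on a BGISEQ-500 (single-end, 50 bases). The deposited values are TPM, 1 table per mouse, summing to 1000000 over 17656 genes. The submitters' processing notes name Bowtie2, RSEM 1.3.1 and GRCm38.p6, whereas the methods of the study name STAR, HTSeq and edgeR, so how reads shared by several genes were assigned is open. Read totals are not part of the files, and no depth or counting error could be given. The sample labels gave each library its group and replicate number, and all 14 were used.

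A gene was tested if its TPM reached 1 in as many libraries as the smaller group holds, or more. The tests were made on log2(TPM + 1) with limma 3.58.1 (lmFit, eBayes with trend, two-sided) in R 4.3.3. Adjusted p-values are Benjamini-Hochberg values over all genes tested, called under 0.05. A comparison of 2 groups used only their libraries, and the interaction used all 14. The procedure was tested on simulated data. Named are the 10 members, the gene with the largest called change in each of 3 lists of pathway genes in WT ConA against WT saline and in KO ConA against WT ConA (none was called in the latter), and the 2 genes most correlated with each member. The other pathway genes named, Endog among them, were picked after their values were seen. The members and lists were chosen with earlier results of these data known. Marker lists of 9 liver cell types were summed per library, and those of 7 (T cell with 9 of 10 markers listed) are given with the results. The other 2 summed over all libraries to 1.28 to 11.7 TPM (NK cell) and 0.41 to 4.11 TPM (B cell, 4 of 5 listed).

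Other settings tried were no filter, a filter at 5 TPM, a pseudocount of 0.1, libraries rescaled by their median ratio to the geometric mean, a robust eBayes, a replicate block, all 14 libraries in 1 fit, WT saline replicates 2 and 3 averaged, and each library left out in turn. Leaving out replicate 3 of both ConA groups, and no filter for 3 pathway genes, were added after the data were seen. Sequences came from GENCODE vM21 and RefSeq tables of GRCm38.p6. Figures used Python 3.11.15 with matplotlib 3.10.9.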

Additional observations from a re-analysis of the deposited data

Results flagged for a closer look

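The response of Bcl2l1 to ConA differed between the genotypes by the test of the difference itself: the interaction was 0.99 on the log2(TPM + 1) scale (SE 0.26, limma, adjusted p = 0.0459), with a rise of 1.63 in WT and 2.62 in KO. The call was lost in 16 of 22 alternatives, with adjusted p-values from 0.0289 to 0.125, and the value stayed positive in all 22. In none of the 20 sets of 4 ConA livers, 10 members in each genotype, did 1 liver lie far enough from the other 3 to pass Dixon's test at the 95% level. The saline groups of 3 were not examined in this way.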

How the results depend on the processing

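In WT ConA against WT saline, the count of 5 members called was 3 with the filter at TPM of 5, where Bcl2a1b and Pmaip1 were no longer tested, and 5 to 8 when 1 library was left out. Over all genes tested, the share called was 53% in the main fit, 57.6% with that filter and 41.8 to 65.9% with 1 library left out. In KO ConA against KO saline, every member tested was called under every alternative, 7 of them with the filter at TPM of 5. The share of all genes called was 64.6% in the main fit, 69.6% with that filter, 46.8% with no filter and 56.3 to 71.8% with 1 library left out. For KO saline against WT saline, the calls over all genes went from 2009 to 958 with no filter, 332 with all 14 libraries in the fit, 49 with the near-identical WT saline pair averaged, and 45 to 2739 with 1 library left out. The 3 members called became 1 (Mcl1), 0, 0 and 0 to 3 in the same order. For KO ConA against WT ConA, the 45 calls became 3 with no filter, 25 after rescaling, 140 with the replicate block, 640 with all 14 libraries and 5 to 52 with 1 library left out. The 1 member called became 0 with no filter, after rescaling, with the block and without replicate 3 of both ConA groups (2 to 5 at an unadjusted p under 0.05 by limma), 2 with all 14 libraries, and 0 to 1 with 1 library left out. For the interaction, the 541 calls became 345 with no filter, 358 with the block, 28 with the near-identical WT saline pair averaged, 1591 without replicate 3 of both ConA groups and 22 to 769 with 1 library left out. The 1 member called became 0 with the pseudocount of 0.1, no filter, rescaling, the block or the averaged WT saline replicates (3 or 4 at an unadjusted p under 0.05), 2 without replicate 3 of both ConA groups, and 0 to 1 with 1 library left out. The share of calls that were higher went from 32.8 to 49.1% in KO saline against WT saline and from 80 to 48% in KO ConA against WT ConA after rescaling.

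Values near 0 that were called in no fit turned sign: Bcl2l11 in WT (-0.00078 with the block, -0.00078 to 0.37 with 1 library left out), Bbc3 in WT (-0.0065 with WT saline replicates averaged, -0.15 to 0.10), Bcl2a1b in saline livers (0.023 after rescaling, -0.11 to 0.20), Bcl2l1 in saline livers (-0.089 to 0.17), and, in KO ConA against WT ConA, Bax (-0.12 to 0.29), Bid (-0.016 to 0.38) and Pmaip1 (-0.074 to 0.23, and -0.077 without replicate 3 of both ConA groups). The interaction of Pmaip1 did so too (-0.0036 without replicate 3 of both ConA groups, -0.00047 to 0.31). In no comparison did the deviations of all same-numbered mice correlate above 0.1, so the numbers were not taken to pair the mice. In KO ConA against WT ConA, 3 of the 4 pairs did (0.129, 0.405 and 0.115, and -0.0071 for replicate 1), in KO saline against WT saline 2 of 3, and in each comparison of ConA with saline 1 of 3. With the replicate block, the adjusted p of Bcl2l1 was 0.0530 in KO ConA against WT ConA and 0.0622 in the interaction, and no other call of a member changed. The cause of these changes was not tested. Depth, which TPM does not carry, limits the precision of the lowest members, Pmaip1, Bcl2a1b and Bcl2a1d, by an amount that could not be stated.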
